A study of Homo sapiens with 29 samples.

Results

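The chaperonin CCT, also called TRiC, was followed here through its subunit genes TCP1 (alpha), CCT2 (beta), CCT3 (gamma), CCT4 (delta), CCT5 (epsilon), CCT6A (zeta), CCT7 (eta) and CCT8 (theta). All probe sets annotated to these symbols were taken, which gave 13 probe sets for 8 genes, out of 22277 probe sets and 12165 genes on the array. The arrays carried RNA of the diffuse large B-cell lymphoma lines DHL6 and DHL4, each an established cell line. Cells had received R406 at 1 µM for 2, 6, 24 or 48 h, with 3 arrays for each time and line, or the vehicle DMSO, with 3 arrays in DHL6 and 2 in DHL4. R406 is the active form of the drug fostamatinib and inhibits the tyrosine kinase SYK, a transducer of B-cell receptor signals, and other kinases as well. All cells were grown in RPMI medium with fetal calf serum. No label dates the DMSO arrays. All R406 times of a line were set against its DMSO arrays, so the comparisons share their controls, and treatment time cannot be told apart from culture time. Whether replicate arrays came from different cultures is not stated, so the p-values below cover array-to-array spread that may be technical.

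CCT is a barrel of stacked rings in the cytosol, and each ring holds 1 copy of each subunit in a fixed order. It encloses newly made proteins and folds them with ATP. Actins and tubulins depend on it, as do many WD40-repeat proteins, among them the cell cycle regulator CDC20. Prefoldin delivers some of these substrates to the ring, and phosducin-like proteins act as its cofactors. The subunits are paralogs of each other and each is encoded by its own gene, so their messenger RNAs can be followed separately.

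Values are log2 expression per probe set as deposited. A difference is given as a log2 change with its standard error (SE) from a limma model of all 10 groups, and a probe set was called at a Benjamini-Hochberg adjusted p below 0.05 over 22215 probe sets. The words rose and fell are kept for calls. The 29 arrays correlated within groups at r = 0.978 to 0.996. Their upper quartiles ran from 4.79 to 5.34, and 4 arrays lay below 5, namely DHL6 48 h replicates 1 and 3, DHL6 6 h replicate 3 and DHL4 2 h replicate 3. The B-cell markers MS4A1, CD79A and CD79B had group means from 8.30 to 11.7, while the PAX5 probe set stayed between 2.59 and 3.03. The other marker lists lay near the lower end of the scale, with 4 T-cell markers between 2.62 and 3.29, 2 monocyte and macrophage markers between 2.60 and 3.23, and 3 fibroblast markers between 2.68 and 3.49. In bulk RNA such as this, fewer cells of a type and less RNA per cell cannot be told apart.

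The promoters of the subunit genes were read because the genes moved together across the groups. RefSeq promoter entries (GRCh38.p14) were found for 7 of the 8 genes, 9 entries in all, and none was used for CCT6A. The 250 bases before the start were searched on both strands for the heat shock element core GAANNTTC, the E-box CACGTG, the CCAAT box CCAAT and the ETS core CCGGAAG, and no match overlapped another. The 4 entries below are shown because each holds a CCAAT box, and capitals mark every match of any searched motif, in either orientation. They are TCP1 at chr6:159789603-159789852 on the minus strand, CCT2 (its upstream entry) at chr12:69585209-69585458 on the plus strand, CCT3 at chr1:156338293-156338542 on the minus strand and CCT8 at chr21:29073649-29073898 on the minus strand.
TCP1: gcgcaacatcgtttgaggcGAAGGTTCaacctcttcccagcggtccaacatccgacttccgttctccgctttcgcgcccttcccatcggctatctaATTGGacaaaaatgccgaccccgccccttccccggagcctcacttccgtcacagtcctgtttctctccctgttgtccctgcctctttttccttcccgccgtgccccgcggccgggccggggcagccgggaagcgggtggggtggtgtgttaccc
CCT2: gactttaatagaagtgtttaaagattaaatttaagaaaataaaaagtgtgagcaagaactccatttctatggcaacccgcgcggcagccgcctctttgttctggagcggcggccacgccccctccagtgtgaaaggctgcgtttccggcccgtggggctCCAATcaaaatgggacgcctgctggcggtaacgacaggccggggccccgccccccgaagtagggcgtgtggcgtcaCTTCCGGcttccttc
CCT3: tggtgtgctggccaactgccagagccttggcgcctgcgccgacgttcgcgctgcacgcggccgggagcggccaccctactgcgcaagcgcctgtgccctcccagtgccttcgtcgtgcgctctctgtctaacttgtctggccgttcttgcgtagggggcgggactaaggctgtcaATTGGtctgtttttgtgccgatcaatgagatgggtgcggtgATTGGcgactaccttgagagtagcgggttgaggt
CCT8: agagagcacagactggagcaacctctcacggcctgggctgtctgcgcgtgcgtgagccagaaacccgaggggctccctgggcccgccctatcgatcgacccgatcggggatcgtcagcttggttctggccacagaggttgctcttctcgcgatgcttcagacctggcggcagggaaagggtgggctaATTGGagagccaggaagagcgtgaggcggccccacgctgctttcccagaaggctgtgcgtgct

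A CCAAT box was found in 4 of the 9 entries, against 32% of the 35116 promoters in the table. The heat shock core, the sequence that heat shock factors bind, was found in 2 of the 9 entries, TCP1 and the second CCT2 entry, against 5.78% of all promoters. In TCP1 it began 231 bases before the start. The ETS core was found in the upstream CCT2 entry only, 15 bases before the start, against 8.52% of all promoters. No entry held the E-box, which 6.34% of all promoters held. The entries of CCT4, CCT5 and CCT7 held none of these letters within 250 bases. The CCT5 entry holds a stretch that reads as the beginning of its coding sequence. It may therefore lie after the main start of CCT5, and the bases further upstream were not searched. The 9 entries are not 9 separate promoters. Those of CCT4, chr2:61888657-61888906 and chr2:61888672-61888921, overlap. The second CCT2 entry, chr12:69585639-69585888, lies downstream of the first, so its heat shock match lies past the start used by the upstream entry. The counts were not tested against the shares of all promoters. A match is a description of the sequence and not a bound site.

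The subunit messages were abundant. The probe set of highest mean stood for each gene where genes are counted, and these 8 probe sets lay between the 94.6 and 98.7 percentile of all probe sets. The suffix _s_at marks sets whose probes match more than 1 transcript, and it applies to the chosen sets of TCP1, CCT2, CCT6A and CCT8. Of the 5 further probe sets, 4 followed the chosen set of their gene over the 10 group means, with Pearson r from 0.915 to 0.992. The second CCT8 set, 210436_at, had a mean of 2.89 near the floor of the scale and r = -0.06 with the first, so it has a bound there more than a level. With all 29 arrays no call was made for it in any of the 19 contrasts.

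Without R406 the lines differed in the messages of single subunits, in both directions. The mean over the 8 genes was described without a test, and the complex itself was not measured. The mean log2 level of the 8 genes was 9.83, 9.81 and 9.74 on the DHL6 DMSO arrays and 9.82 and 9.80 on the DHL4 DMSO arrays, so the groups overlapped. For single genes the groups did not overlap in 7 of 8, as in 47.9% of all genes. TCP1, CCT2 and CCT8 were lower in DHL6, and CCT5 and CCT7 were higher in DHL6. This is 3 of 8 genes called lower, where 10.2% of all genes were, and 2 of 8 called higher, where 9.74% were. Among the 799 genes at least as bright as the dimmest subunit gene, 25.3% were called lower and 21.8% higher. The subunit counts were not tested against these shares. TCP1 had 9.22, 9.16 and 9.14 in DHL6 DMSO, against 9.93 and 9.78 in DHL4 DMSO, a log2 difference of -0.68 (SE 0.113, adjusted p = 6.29e-05). Every DHL6 value lay below both DHL4 values, and the other TCP1 probe sets differed by -0.73 and -0.68. CCT5 had 9.94, 9.95 and 9.92 in DHL6 DMSO, against 9.55 and 9.54 in DHL4 DMSO, a difference of 0.40 (SE 0.110, adjusted p = 0.0115). CCT8 differed by -0.40 (SE 0.109, adjusted p = 0.00901), CCT2 by -0.32 (SE 0.105, adjusted p = 0.0354) and CCT7 by 0.34 (SE 0.115, adjusted p = 0.0433). The second CCT2 set had means of 9.93 in DHL6 and 10.19 in DHL4 without a call. The CCT2 call was lost after quantile normalization (adjusted p = 0.112), median centring (0.0778) and with the replicate number as a block (0.0539). The CCT7 call was lost after median centring (adjusted p = 0.0609). Leaving out DHL4 DMSO replicate 1 left 2 of the 7 called probe sets, leaving out DHL4 DMSO replicate 2 left 3, and leaving out DHL6 DMSO replicate 1 left 4.

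**Figure D1:**
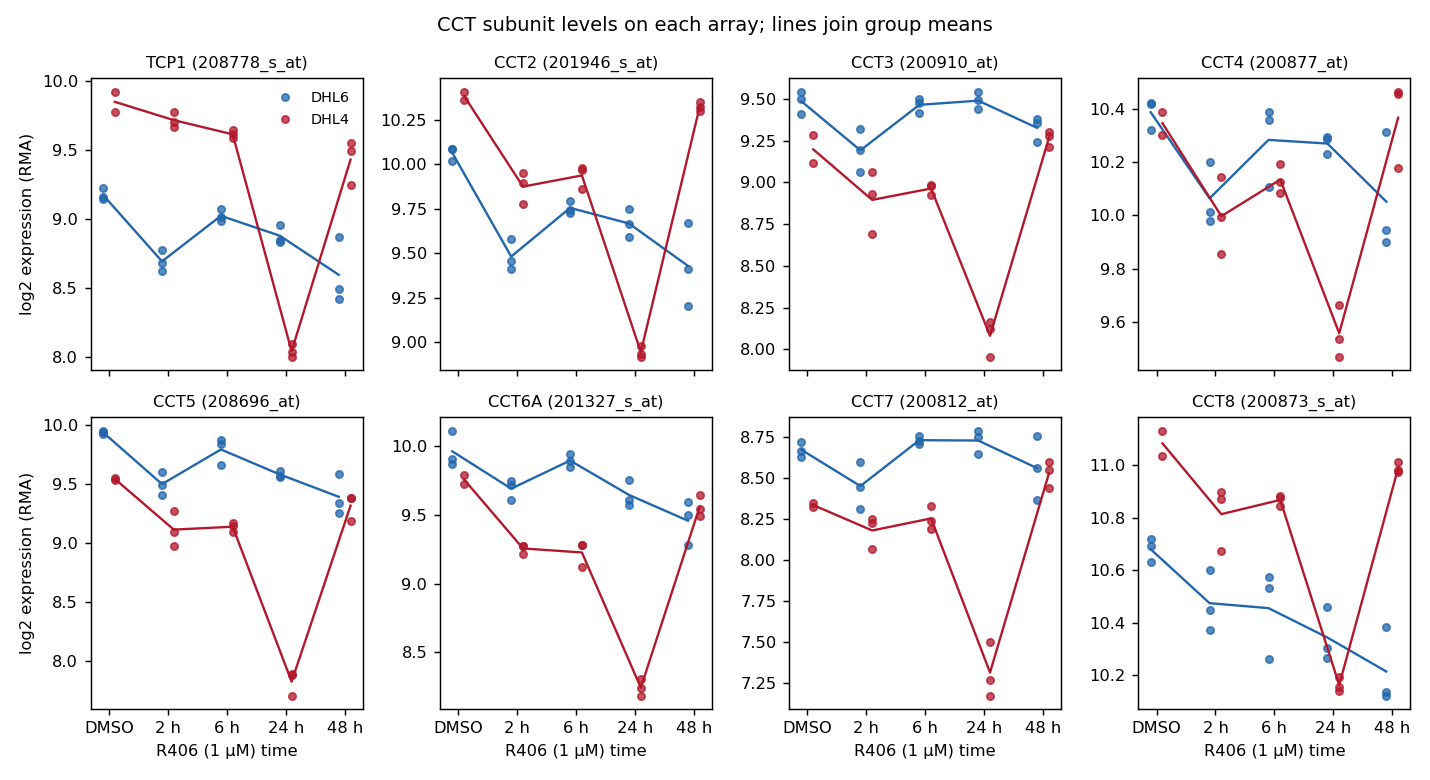
log2 expression of the chosen probe set of each CCT gene (vertical axis, own range for each gene) on every array, by group from DMSO to R406 48 h (horizontal axis, not to scale in time). Points are arrays, DHL6 in blue left of DHL4 in red, and lines join group means. In every gene the 3 DHL4 arrays at 24 h lie below all other DHL4 arrays.

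After R406 every called subunit was lower than in DMSO. In DHL6 the genes that fell numbered 3 at 2 h, 1 at 6 h, 4 at 24 h and 6 at 48 h, of 8. Over all genes the share that fell in DHL6 was 3.01% at 2 h, 4.91% at 6 h, 7.96% at 24 h and 14.6% at 48 h. In DHL4 the genes that fell numbered 3 at 2 h, 3 at 6 h, 8 at 24 h and 1 at 48 h. Over all genes the share that fell in DHL4 was 6.62% at 2 h, 6.18% at 6 h, 16.3% at 24 h and 3.70% at 48 h. By limma no subunit probe set rose against DMSO in either line, also at an unadjusted p below 0.05. Without DHL6 48 h replicate 2, the dim second CCT8 set, 210436_at, was called higher at 48 h in DHL6 (0.44, adjusted p = 0.0420). The median log2 change of the 8 genes in DHL6 was -0.31 at 2 h, -0.12 at 6 h, -0.31 at 24 h and -0.49 at 48 h. In DHL4 the median was -0.33 at 2 h, -0.24 at 6 h, -1.28 at 24 h and -0.08 at 48 h. Over all genes these medians lay between 0.01 and 0.04. Treated and DMSO arrays did not overlap in 8, 4, 6 and 7 of the 8 genes at 2, 6, 24 and 48 h in DHL6, where 23.6%, 25.4%, 35.6% and 36.3% of all genes did not overlap. In DHL4 they did not overlap in 7, 7, 8 and 6 of the 8 genes at these times, where 36.6%, 41.7%, 50.2% and 36.7% of all genes did not.

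Abundant genes were called more often than dim ones, so the shares among bright genes are given as well. There were 799 genes at least as bright as the dimmest subunit gene, CCT7, with a mean of 8.38. Of these, 9.39% fell at 2 h, 14.1% at 6 h, 26.5% at 24 h and 36.5% at 48 h in DHL6. In DHL4, 12.5% fell at 2 h, 16.9% at 6 h, 50.1% at 24 h and 15.0% at 48 h. Their median change was -0.12 in DHL6 at 48 h and -0.29 in DHL4 at 24 h.

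**Figure D2:**
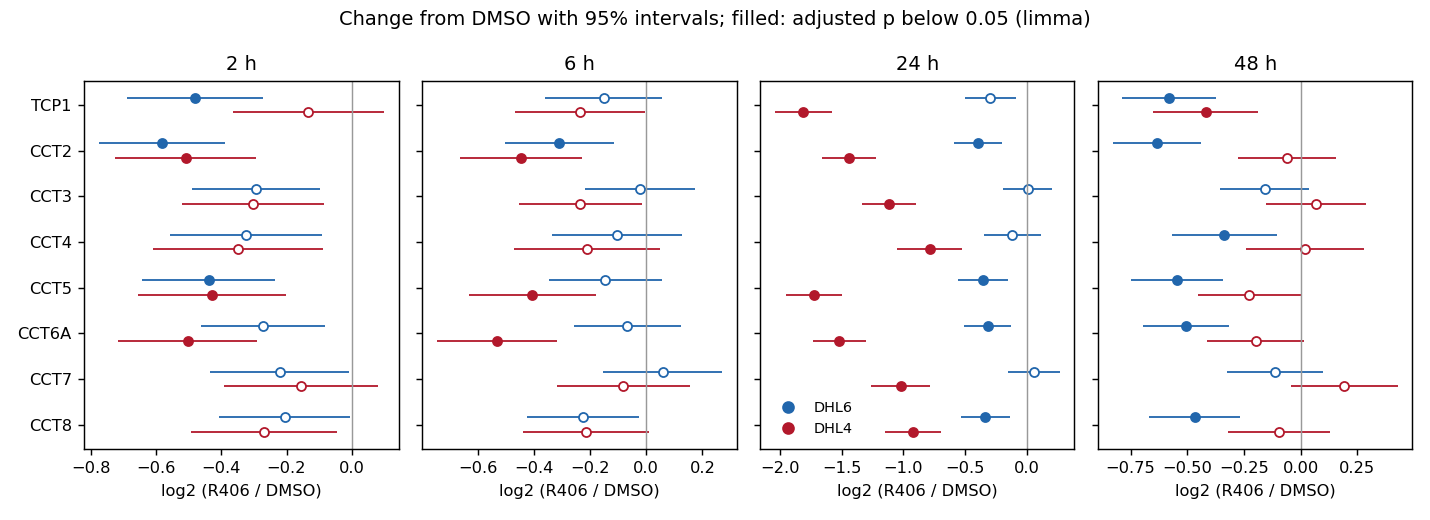
log2 change from DMSO (horizontal axis, own range for each time) of the 8 CCT genes at each R406 time, DHL6 in blue above DHL4 in red. Bars are 95% intervals from the limma model and filled points had an adjusted p below 0.05. At 24 h all 8 DHL4 points lie between -1.81 and -0.79.

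At 2 h the chosen probe sets of CCT2 and CCT5 were called lower in both lines, that of TCP1 in DHL6 and that of CCT6A in DHL4. The difference of the responses between the lines at 2 h was called in none of the 13 probe sets. In DHL6, 5 of 13 probe sets fell, where 2.74% of all probe sets did. CCT2 had 9.41, 9.46 and 9.58 at 2 h in DHL6, against 10.09, 10.09 and 10.02 in DMSO, a log2 change of -0.58 (SE 0.0940, adjusted p = 0.000207). TCP1 had 8.78, 8.62 and 8.68 at 2 h in DHL6, against 9.22, 9.16 and 9.14 in DMSO, a change of -0.48 (SE 0.101, adjusted p = 0.00356). CCT5 had 9.41, 9.49 and 9.60 at 2 h in DHL6, against 9.94, 9.95 and 9.92 in DMSO, a change of -0.44 (SE 0.0984, adjusted p = 0.00648). In these 3 genes all treated values lay below all DMSO values. The other 5 genes changed by -0.32 to -0.21 without passing the test, although all 8 genes had an unadjusted p below 0.05. For CCT6A the chosen probe set missed the threshold (-0.27, adjusted p = 0.120) and the second passed it (-0.47, adjusted p = 0.00558). Leaving out DHL6 2 h replicate 1 left 3 of the 5 called probe sets.

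In DHL4 at 2 h, 4 of 13 probe sets fell, where 5.86% of all probe sets did. CCT2 had 9.89, 9.95 and 9.78 at 2 h in DHL4, against 10.36 and 10.41 in DMSO, a change of -0.51 (SE 0.105, adjusted p = 0.00203). CCT6A had 9.27, 9.22 and 9.28 at 2 h in DHL4, against 9.79 and 9.73 in DMSO, a change of -0.50 (SE 0.104, adjusted p = 0.00200). CCT5 changed by -0.43 (SE 0.110, adjusted p = 0.0131). The groups did not overlap in these 3 genes. TCP1 had 9.67, 9.78 and 9.71 at 2 h in DHL4, against 9.93 and 9.78 in DMSO, and these groups overlapped (-0.13, adjusted p = 0.585). The further TCP1 sets 222010_at and 222011_s_at changed by -0.35 (adjusted p = 0.136) and -0.34 (adjusted p = 0.412) in DHL4. Neither was called, but their groups did not overlap. Leaving out DHL4 DMSO replicate 1 left 2 called probe sets. A model of the compared groups alone called 0, against the 4 of the model of all groups. In the model of all groups 9 of the 13 had an unadjusted p below 0.05. Over all probe sets 1302 fell and 484 rose here, and after quantile normalization 981 fell and 801 rose.

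At 6 h the decline was smaller in DHL6, where 2 of 13 probe sets fell and 4.43% of all probe sets did. These were CCT2 201946_s_at, with 9.79, 9.74 and 9.73 at 6 h in DHL6, against 10.09, 10.09 and 10.02 in DMSO (-0.31, SE 0.0940, adjusted p = 0.0458), and TCP1 222011_s_at (-0.74, SE 0.187, adjusted p = 0.0124). CCT3, CCT4, CCT6A and CCT7 changed by -0.10 to 0.06 and their groups overlapped. No call was left after leaving out DHL6 DMSO replicate 2 or DHL6 6 h replicate 3, or after quantile normalization. Without DHL6 DMSO replicate 1, DHL6 6 h replicate 1 or DHL6 6 h replicate 2, 1 call was left. The call of CCT2 201946_s_at was lost on leaving out any single array of the compared groups (adjusted p from 0.0666 to 0.143). It was also lost with the replicate number as a block (0.0502) and in a model of the compared groups alone (0.111). Over all probe sets 984 fell and 547 rose, and after quantile normalization 926 fell and 838 rose.

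In DHL4 at 6 h, 5 of 13 probe sets fell, where 5.44% of all probe sets did. CCT6A had 9.12, 9.28 and 9.28 at 6 h in DHL4, against 9.79 and 9.73 in DMSO, a change of -0.53 (SE 0.104, adjusted p = 0.000707). CCT2 had 9.98, 9.86 and 9.97 at 6 h in DHL4, against 10.36 and 10.41 in DMSO, a change of -0.45 (SE 0.105, adjusted p = 0.00461). CCT5 had 9.15, 9.10 and 9.17 at 6 h in DHL4, against 9.55 and 9.54 in DMSO, a change of -0.41 (SE 0.110, adjusted p = 0.0149). All treated values of these genes lay below both DMSO values, and the second probe sets of CCT2 and CCT6A fell as well. The other 5 genes changed by -0.24 to -0.08 without passing the test. Without DHL4 DMSO replicate 2 there were 2 calls, and without DHL4 DMSO replicate 1 or DHL4 6 h replicate 2 there were 3.

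At 24 h all 8 subunit genes fell in DHL4, by 1.73-fold (CCT4) to 3.50-fold (TCP1), while in DHL6 4 genes fell, by at most 1.32-fold. In DHL4, 12 of 13 probe sets fell, where 14.3% of all probe sets did, and the exception was the dim second CCT8 set. The adjusted p of the 8 genes was 1.88e-05 at most. TCP1, the subunit for which the complex was named, had 8.033, 8.004 and 8.091 at 24 h in DHL4, against 9.93 and 9.78 in DMSO, a log2 change of -1.81 (SE 0.113, adjusted p = 3.08e-12). CCT5 had 7.70, 7.88 and 7.88 at 24 h in DHL4, against 9.55 and 9.54 in DMSO, a change of -1.72 (SE 0.110). Both genes were more than 1 log2 unit lower on every treated array. CCT6A had 8.30, 8.18 and 8.24 at 24 h in DHL4, against 9.79 and 9.73 in DMSO, a change of -1.52 (SE 0.104). CCT2 had 8.92, 8.93 and 8.98 at 24 h in DHL4, against 10.36 and 10.41 in DMSO, a change of -1.44 (SE 0.105). CCT3 had 8.12, 7.96 and 8.16 at 24 h in DHL4, against 9.11 and 9.28 in DMSO, a change of -1.12 (SE 0.106). In these genes too the groups lay far apart.

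The smaller declines in DHL4 at 24 h were those of CCT7, CCT8 and CCT4. CCT7 had 7.17, 7.50 and 7.27 at 24 h in DHL4, against 8.32 and 8.34 in DMSO, a change of -1.02 (SE 0.115). CCT8 had 10.19, 10.14 and 10.15 at 24 h in DHL4, against 11.13 and 11.04 in DMSO, a change of -0.92 (SE 0.109). CCT4 had 9.54, 9.67 and 9.47 at 24 h in DHL4, against 10.39 and 10.30 in DMSO, a change of -0.79 (SE 0.126). No treated value of the 8 genes reached a DMSO value, and the widest spread among the 3 treated arrays, highest minus lowest, was 0.32 log2 units, in CCT7. The 95% interval of the TCP1 change, -2.04 to -1.58, did not meet that of CCT4, -1.05 to -0.53, although the difference between genes was not tested. The upper quartile of the DHL4 24 h arrays, 5.10 to 5.13, lay below that of DHL4 DMSO, 5.19 to 5.33. After quantile normalization of the deposited values the same count of 12 probe sets fell and the median of the 8 genes was -1.10.

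In DHL6 at 24 h, 6 of 13 probe sets fell, where 7.30% of all probe sets did. CCT2 had 9.59, 9.75 and 9.66 at 24 h in DHL6, against 10.09, 10.09 and 10.02 in DMSO, a change of -0.40 (SE 0.0940, adjusted p = 0.00457). CCT5 had 9.62, 9.56 and 9.57 at 24 h in DHL6, against 9.94, 9.95 and 9.92 in DMSO, a change of -0.36 (SE 0.0984, adjusted p = 0.0149). CCT8 changed by -0.34 (adjusted p = 0.0206) and CCT6A by -0.32 (adjusted p = 0.0220). The groups did not overlap in these 4 genes. TCP1 changed by -0.30 and just missed the threshold (adjusted p = 0.0567), while TCP1 222011_s_at fell by 0.85. CCT3 had 9.54, 9.44 and 9.49 at 24 h in DHL6, against 9.50, 9.54 and 9.41 in DMSO, a change of 0.00 with a 95% interval of -0.19 to 0.20. CCT7 changed by 0.06 (95% interval -0.16 to 0.27) and CCT4 by -0.12 (-0.35 to 0.12). Leaving out DHL6 24 h replicate 2 left 3 of the 6 calls, and CCT5 then had an adjusted p of 0.0530. Quantile normalization left 4 of the 6, without CCT8 (adjusted p = 0.0780) and CCT6A (0.0503). Leaving out other single arrays also removed these calls, with adjusted p up to 0.0992 for CCT8 and 0.164 for CCT6A. A model of the compared groups alone did not call CCT6A (0.0709).

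At 48 h more subunits were called lower against DMSO in DHL6 than in DHL4. The difference of the responses between the lines at 48 h was itself called in 2 of 13 probe sets only. In DHL6, 10 of 13 probe sets and 6 of 8 genes fell, where 13.4% of all probe sets did. CCT2 had 9.41, 9.67 and 9.21 at 48 h in DHL6, against 10.09, 10.09 and 10.02 in DMSO, a change of -0.64 (SE 0.0940, adjusted p = 1.82e-05). TCP1 had 8.50, 8.87 and 8.42 at 48 h in DHL6, against 9.22, 9.16 and 9.14 in DMSO, a change of -0.58 (SE 0.101, adjusted p = 0.000139). CCT5 had 9.25, 9.58 and 9.34 at 48 h in DHL6, against 9.94, 9.95 and 9.92 in DMSO, a change of -0.55 (SE 0.0984, adjusted p = 0.000197). All treated values lay below all DMSO values, and replicate 2 was the highest treated array in each of these genes. CCT6A changed by -0.51, CCT8 by -0.47 and CCT4 by -0.34, with adjusted p of 0.000241, 0.000958 and 0.0359. CCT3 (-0.16) and CCT7 (-0.11) did not pass. The CCT4 call was lost after quantile normalization (-0.20, adjusted p = 0.179) and in a model of the compared groups alone (0.159). It was also lost on leaving out any single array of these groups other than DHL6 48 h replicate 2 (0.0512 to 0.163).

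The size of the DHL6 decline at 48 h moved with the arrays. The mean of the 8 genes was 9.32, 9.57 and 9.25 in replicates 1, 2 and 3, and the upper quartiles of these arrays were 4.79, 5.15 and 4.96. DMSO arrays of DHL6 had upper quartiles of 5.25 to 5.32. Without the 4 arrays of low upper quartile, a choice made after the data were seen, replicate 2 alone stood for this group, and its spread was assumed to equal that of the other groups. With 1 treated array the test has less power, and 1 probe set was called, CCT2 201946_s_at (-0.39, adjusted p = 0.0205). The median of the 8 genes was then -0.30, and after quantile normalization of all arrays it was -0.33 with 7 calls. Over all probe sets 2975 fell and 1524 rose at 48 h in DHL6. After quantile normalization 2089 fell and 1913 rose, and after centring each array on its median 3626 fell and 811 rose.

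**Figure D3:**
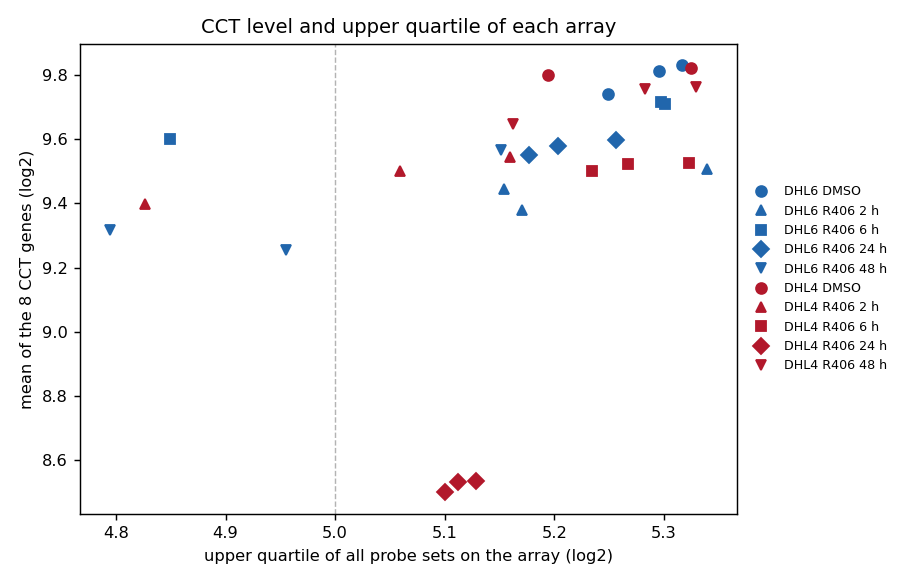
Mean log2 level of the 8 CCT genes (vertical axis) against the upper quartile of all probe sets (horizontal axis, log2) of each of the 29 arrays, DHL6 in blue and DHL4 in red, with a mark for each group. The dashed line marks an upper quartile of 5, and the 3 DHL4 arrays at 24 h stand alone near 8.5 at upper quartiles of 5.10 to 5.13.

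In DHL4 at 48 h, 1 of 13 probe sets fell, where 3.42% of all probe sets did. TCP1 had 9.55, 9.50 and 9.25 at 48 h in DHL4, against 9.93 and 9.78 in DMSO, a change of -0.42 (SE 0.113, adjusted p = 0.0229). The groups did not overlap. This call was lost without DHL4 DMSO replicate 1 (adjusted p = 0.252), without DHL4 DMSO replicate 2 (0.0668) and without DHL4 48 h replicate 3 (0.137). CCT2 had 10.32, 10.35 and 10.30 at 48 h in DHL4, against 10.36 and 10.41 in DMSO, a change of -0.06 with a 95% interval of -0.28 to 0.16. CCT4 had 10.46, 10.46 and 10.18 at 48 h in DHL4, against 10.39 and 10.30 in DMSO, and these groups overlapped. The 8 genes lay between -0.42 and 0.19.

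Successive times showed the course within each line. In DHL4 the mean of the 8 genes was 9.82 and 9.80 in DMSO, 9.50, 9.55 and 9.40 at 2 h, 9.53, 9.50 and 9.52 at 6 h, 8.50, 8.53 and 8.53 at 24 h, and 9.76, 9.76 and 9.65 at 48 h. From high to low the DHL4 groups were thus DMSO, 48 h, 6 h, 2 h and 24 h, with the 6 h and 2 h arrays overlapping. Against 6 h, all 8 genes fell at 24 h in DHL4 (-1.57 in TCP1 to -0.58 in CCT4), where 13.3% of all genes fell. Against 24 h, all 8 genes rose at 48 h in DHL4 (0.81 in CCT4 to 1.49 in CCT5), where 14.2% of all genes rose. Of the 799 genes at least as bright as the dimmest subunit gene, 48.6% fell from 6 h to 24 h. From 24 h to 48 h, 46.1% of these bright genes rose. The step from 6 h to 24 h and that from 24 h to 48 h were each called in 12 of 13 probe sets. Over all probe sets 11.5% fell in the first and 12.2% rose in the second. Leaving out any array of these groups kept the count at 12. Between 2 h and 6 h in DHL4 limma called none of the 13 probe sets, where 10.1% of all probe sets were called. At an unadjusted p below 0.05, 2 of the 13 were lower at 6 h.

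In DHL6 the mean of the 8 genes was 9.83, 9.81 and 9.74 in DMSO, 9.38, 9.44 and 9.51 at 2 h, 9.71, 9.72 and 9.60 at 6 h, 9.60, 9.55 and 9.58 at 24 h, and 9.32, 9.57 and 9.25 at 48 h. From high to low the groups were DMSO, 6 h, 24 h, 2 h and 48 h, and the 48 h arrays overlapped those of 2 h and 24 h. Limma called none of the 13 probe sets between successive times in DHL6, where it called 3.51% of all probe sets from 2 to 6 h, 4.47% from 6 to 24 h and 6.04% from 24 to 48 h. At an unadjusted p below 0.05, 8 of 13 probe sets were higher at 6 h than at 2 h, 2 were lower at 24 h than at 6 h, and 2 were lower at 48 h than at 24 h. After quantile normalization 5 probe sets rose at 6 h against 2 h.

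The response to R406 differed between the lines mainly at 24 h. The response in DHL6 minus that in DHL4 was tested as an interaction within the model. At 2 h limma called none of the 13 probe sets, where it called 1.31% of all, and 1 had an unadjusted p below 0.05. At 24 h all 8 genes and 12 of 13 probe sets were called with higher values in DHL6, where 9.19% of all genes and 7.66% of all probe sets were. Of the 799 genes at least as bright as the dimmest subunit gene, 34.4% were called higher, with a median difference of 0.18. TCP1 differed most, by 1.51 (SE 0.151, adjusted p = 6.49e-08), with a change of -0.30 in DHL6 and -1.81 in DHL4. CCT5 differed by 1.36 (SE 0.148) and CCT6A by 1.20 (SE 0.139). The smallest differences were those of CCT4, 0.67 (SE 0.169, adjusted p = 0.00682), and CCT8, 0.59 (SE 0.146, adjusted p = 0.00616). CCT3 (1.12) and CCT7 (1.08) combined a change near 0 in DHL6 with a decline of about 1 log2 unit in DHL4. Leaving out single arrays kept 10 to 12 of these calls.

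At 6 h and 48 h the lines differed in few probe sets. CCT6A 201327_s_at differed at 6 h by 0.47 (SE 0.139, adjusted p = 0.0485), with -0.07 in DHL6 and -0.53 in DHL4, where 2.44% of all probe sets were called higher. This call was lost on leaving out 10 of the 11 arrays involved. At 48 h the direction of the differences was the opposite one, with negative values in all 8 genes and a median of -0.31. CCT2 201946_s_at differed by -0.57 (SE 0.141, adjusted p = 0.0186) and CCT6A 201326_at by -0.55 (SE 0.154, adjusted p = 0.0405), 2 of 13 where 2.75% of all probe sets were called lower. Leaving out single arrays changed this count for 10 of the 11 arrays involved, to between 0 and 5, and a model of the compared groups alone called 0. Without the 4 arrays of low upper quartile, which left 1 DHL6 array at 48 h, no probe set was called. The difference was then -0.33 for CCT2 201946_s_at (adjusted p = 0.262) and -0.58 for CCT6A 201326_at (adjusted p = 0.104).

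**Figure D4:**
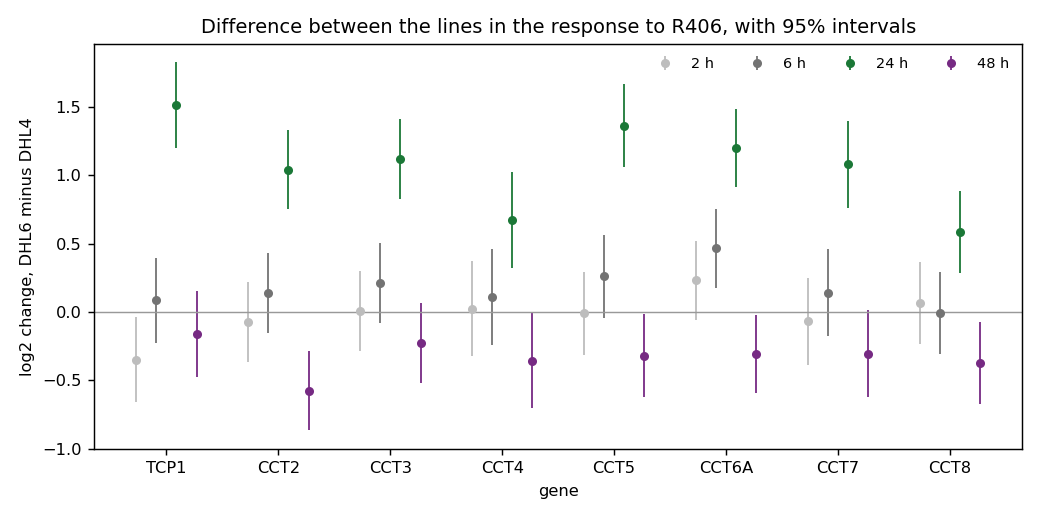
Difference of the R406 responses, DHL6 minus DHL4 (vertical axis, log2), for the chosen probe set of each CCT gene at 2, 6, 24 and 48 h. Bars are 95% intervals from the limma model. At 24 h all 8 intervals lie above 0.

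The 8 genes had similar courses that differed in depth. Over the 10 group means, centred within each line, the 28 pairs of genes correlated at r = 0.857 to 0.990 with a median of 0.941. Each gene was also set against the mean of the other 7, and r ran from 0.932 in TCP1 to 0.995 in CCT5. Among 12158 genes ranked by this r, CCT5 had rank 1, CCT7 rank 114 and TCP1 rank 139, and the rest lay between 8 and 46. Non-member genes thus followed the other subunits more closely than any subunit but CCT5 did. The group means share their arrays and their DMSO groups, and the DHL4 24 h group lies far from the others, so the values describe the profiles only. By the same measure the non-member genes closest to the mean CCT profile, among 12157, were HSPD1 (0.990), MRPL3 (0.989), HSPE1 (0.988), STIP1 (0.988) and PSMG1 (0.987). MRPL3 encodes a mitochondrial ribosomal protein, STIP1 a cochaperone that links HSP70 and HSP90, and PSMG1 a chaperone of proteasome assembly. At 24 h they changed by -0.27, -0.25 and -0.24 in DHL6 and by -1.56, -1.93 and -2.71 in DHL4, in that order.

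HSPD1 and HSPE1 encode the mitochondrial chaperonin HSP60 and its lid HSP10, which work on the same principle as CCT in another compartment. Both fell in DHL4 at 24 h, HSPE1 to 7.25, against 9.63 in DMSO (-2.37, SE 0.134), and HSPD1 to 9.98, against 11.70 in DMSO (-1.71, SE 0.0910). At 24 h in DHL6 HSPD1 fell (-0.39) and HSPE1 had -0.23 without a call. The difference of the responses at 24 h was called for both, 2.14 for HSPE1 and 1.33 for HSPD1. At 48 h in DHL4 neither was called (-0.09 for HSPD1 and 0.10 for HSPE1), and at 48 h in DHL6 both fell (-0.49 and -0.55).

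The factors that work with CCT were described by list, and no test set a list against the CCT genes. At 24 h 7.96% of all genes fell and 6.02% rose in DHL6, and 16.3% fell and 12.8% rose in DHL4. All 6 prefoldin genes were measured. At 24 h in DHL6 none fell and 2 rose, and at 24 h in DHL4 3 fell and 1 rose, with list medians of 0.06 in DHL6 and -0.54 in DHL4. VBP1 (-0.96), PFDN2 (-0.94) and PFDN6 fell in DHL4 at 24 h, while PFDN5, also known as a MYC-binding protein, rose in both lines (0.40 in DHL6 and 1.01 in DHL4). Of the phosducin-like cofactors, PDCL and TXNDC9 were measured and PDCL3 was not analysed here. TXNDC9 fell in DHL6 at 24 h (-0.53) and 48 h (-0.44) and had -0.33 in DHL4 at 24 h without a call. Of the 5 tubulin folding cofactors, which take over tubulin after CCT, 2 rose in DHL6 at 24 h, TBCB (0.49) and TBCC (0.40), and none was called in DHL4 at 24 h, where the list median was 0.09. The relatives CCT6B, MKKS and BBS10 had no call against DMSO, and BBS12 was not analysed here. HSF1, a heat shock transcription factor, had none either, and HSF2 was not analysed here.

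The main substrates of CCT are actins and tubulins. Both cytoplasmic actins fell in both lines at 24 h, with changes of -0.55 in DHL6 and -0.71 in DHL4 for ACTB, and -0.63 in DHL6 and -0.71 in DHL4 for ACTG1. Neither difference between the lines at 24 h was called (0.16 for ACTB and 0.08 for ACTG1). At 48 h ACTB had changes of -0.76 in DHL6 and -0.34 in DHL4. Of 10 tubulin genes, 7 fell and 1 rose in DHL6 at 24 h, and 7 fell and 3 rose in DHL4 at 24 h, with medians of -0.46 in DHL6 and -1.06 in DHL4. Over all genes the shares at 24 h were 7.96% lower and 6.02% higher in DHL6, and 16.3% lower and 12.8% higher in DHL4. TUBG1, the gamma-tubulin of centrosomes, changed by -0.68 in DHL6 and -2.15 in DHL4, and TUBB3 by -0.50 in DHL6 and -1.37 in DHL4. TUBB2A fell in DHL6 at 24 h (-1.01) and 48 h (-2.26) and rose in DHL4 at 24 h (1.84). Tubulin and actin genes have near-identical copies, so their probe sets may share signal. Among 10 other substrates, none fell and 1 rose in DHL6 at 24 h, and 4 fell and 1 rose in DHL4 at 24 h, to be read against the same shares of all genes. CDC20, an activator of the anaphase-promoting complex, rose in DHL6 (0.81) and fell in DHL4 (-0.84) at 24 h. PLK1, a mitotic kinase, fell in DHL4 at 24 h (-1.78) and had 0.69 in DHL6 without a call, and CCNE1, the cyclin of S phase entry, fell in DHL4 at 24 h (-0.87). RPTOR was not analysed here.

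**Figure D5:**
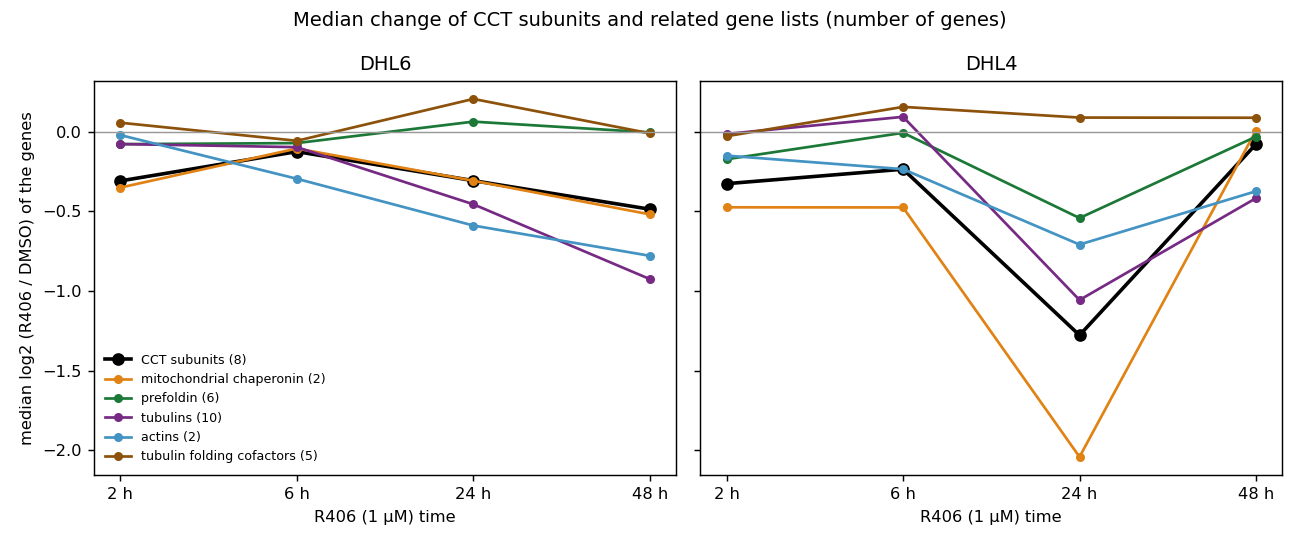
Median log2 change from DMSO (vertical axis) of the CCT genes and of 5 related gene lists at each R406 time (horizontal axis, not to scale), DHL6 left and DHL4 right. Numbers in the legend are genes in a list. In DHL4 at 24 h the CCT median is -1.28 and that of the mitochondrial chaperonin -2.04, while the tubulin folding cofactors stay at 0.09.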

How the data were processed

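The authors' deposited values were log2 expression per probe set of an Affymetrix human gene expression array, made with RMA per the submitters' processing notes. The version of RMA and the set of arrays it normalized jointly are not stated in these sources. RMA pulls dim probe sets together, which understates their fold changes. Precision is limited by how many arrays there are. Of 22277 probe sets, 62 array controls were left out. Symbols came from the platform annotation, updated by Entrez identifier (19707 of 19724 probe sets with a single symbol), and 568 probe sets had several symbols and 1923 none listed. Limma 3.58.1 in R 4.3.3 fitted the means of 10 groups to 29 arrays with 19 residual and 5.15 prior degrees of freedom, and was tested on simulated data. Benjamini-Hochberg adjustment covered 22215 probe sets in each of 19 contrasts. All subunit probe sets are named. Of each related list at most 3 called genes of largest change against DMSO are named; PFDN6 is a further name, chosen after its value was seen. The members and lists were chosen with earlier results of these data known. Alternatives were quantile normalization, median centring, a filter on dim probe sets, 1 probe set a gene, a model of the compared groups alone, the replicate number as a block, leaving out each array, and leaving out 4 arrays of low upper quartile. Sequences came from RefSeq tables on GRCh38.p14. Figures were drawn with matplotlib 3.10.9.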

Additional observations from a re-analysis of the deposited data

Results flagged for a closer look

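The responses of the lines differed, by the interaction term of the limma model, in 15 tests of single probe sets. At 24 h the response in DHL6 minus that in DHL4 was 1.51, 0.78 and 0.92 for the TCP1 probe sets 208778_s_at, 222010_at and 222011_s_at. It was 1.04 and 0.82 for CCT2 201946_s_at and 201947_s_at, 1.12 for CCT3, 0.67 for CCT4 and 1.36 for CCT5. It was 1.20 and 1.07 for CCT6A 201327_s_at and 201326_at, 1.08 for CCT7 and 0.59 for CCT8 200873_s_at. The adjusted p of these 12 ran from 6.49e-08 to 0.0270. CCT6A 201327_s_at also differed at 6 h, by 0.47 (adjusted p = 0.0485). At 48 h CCT2 201946_s_at differed by -0.57 (adjusted p = 0.0186) and CCT6A 201326_at by -0.55 (adjusted p = 0.0405), the opposite direction to 24 h. No group had 4 or more arrays, so single arrays were not tested for lying apart.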

How the results depend on the processing

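Counts are called subunit probe sets of 13. The fall in DHL4 at 24 h and the steps around it held 12 under every alternative that kept all 13 probe sets or filtered dim ones, and 8 of 8 with 1 probe set a gene. Leaving out single arrays gave, in DHL6 against DMSO, 3 to 5 at 2 h, 0 to 2 at 6 h, 3 to 6 at 24 h and 9 to 11 at 48 h (the 11, without DHL6 48 h replicate 2, were 10 lower and 1 higher, CCT8 210436_at), and in DHL4 2 to 5 at 2 h, 2 to 5 at 6 h and 0 to 1 at 48 h. It gave 0 to 1 for the difference of the responses at 6 h, 10 to 12 at 24 h and 0 to 5 at 48 h (the 5, without the same array, were 4 lower and 1 higher), 2 to 5 for the lines in DMSO, and in DHL6 0 to 1 for 6 h against 2 h and 0 to 4 for 48 h against 24 h (4 without DHL6 48 h replicate 2). A model of the compared groups alone gave 0 in DHL4 at 2 h and 48 h, 1 in DHL6 at 6 h, 0 for the differences at 6 h and 48 h and 1 for 6 h against 2 h in DHL4. Quantile normalization gave 0 in DHL6 at 6 h, 1 for the difference at 48 h, 1 lower in DHL4 and 5 higher in DHL6 for 6 h against 2 h. Median centring gave 0 for the difference at 6 h, and the filter on dim probe sets gave 2 for 6 h against 2 h in DHL6. Without the 4 arrays of low upper quartile, an alternative chosen after seeing the data, there were 8 in DHL6 at 2 h, 1 at 48 h, 0 for the difference at 48 h and 3 for 6 h against 2 h in DHL6. The causes were not tested.

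Of 1677 values of single probe sets with 1 array left out, 82 lost and 12 gained a call, and of 1463 under the other alternatives 40 lost and 23 gained one. No called value changed sign, and values without a call did so in 70 and 52 cases. Over all probe sets, the split of calls also moved under quantile normalization for the difference of the responses at 2 h (92 lower and 198 higher, then 124 and 150) and at 48 h (611 and 275, then 457 and 418), for 6 h against 2 h in DHL4 (647 and 1593, then 946 and 1116) and for 48 h against 24 h in DHL6 (1040 and 302, then 690 and 527).

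The deviations of same-numbered arrays of different groups correlated at r from -0.44 to 0.22 over 40 pairs, 4 of them above 0.1. In groups of so few arrays the deviations are tied to each other. These values therefore cannot decide whether same-numbered arrays share a culture or batch. With the replicate number as a block, 1 probe set was called in DHL6 at 6 h, 0 for the difference at 6 h and 1 for the difference at 48 h, and no other count moved by over 1.5 times.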
